A study of Homo sapiens with 24 samples.

Results

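The genes described here are the ligands and receptors of axon guidance, taken from a gene table of 24 RNA-seq libraries of human neuroblastoma cells in which NDUFS6 was knocked down or overexpressed. A row was a member when its symbol named a class 3 to 7 semaphorin, a plexin, a neuropilin, an ephrin, an Eph receptor, a Slit, a Robo receptor, a netrin, an UNC5 receptor or DCC, and when it reached 1 FPKM (fragment counts scaled by transcript length and library size) in at least 3 libraries. Of 60564 rows in the table, 71 carried such a symbol and 55 were members. The members were all 3 Slits, 4 of 6 netrins, 17 of 20 semaphorins, all 8 ephrins, 3 of 4 Robo receptors, 4 of 5 netrin receptors, 10 of 11 plexins and neuropilins, and 6 of 14 Eph receptors. They comprised 32 ligands and 23 receptors. The threshold used no comparison between groups. Just inside it lay EPHA8, SEMA4A and SEMA6B, each at 1 FPKM or more in 3 libraries, and just outside it lay DCC, with a highest value of 1.03 FPKM, and SEMA5B, with 1.07 FPKM, each in 1 library. The other 14 symbols that did not reach the threshold were EPHA1, EPHA3, EPHA4, EPHA5, EPHA6, EPHA7, EPHB1, EPHB6, NTN1, NTN5, PLXNC1, ROBO4, SEMA3E and SEMA3G, of which EPHA5 was highest, at 0.900 FPKM.

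Guidance cues steer growing axons and migrating neural crest cells, the lineage from which neuroblastoma arises, by attracting or repelling the cells that carry their receptors. Slits are secreted repellents read by Robo receptors. Secreted netrins are read by DCC as attraction and by UNC5 receptors as repulsion. Class 3 semaphorins are secreted and bind a neuropilin that signals through a plexin. Most other semaphorins are held in the membrane and bind plexins directly. Ephrins are membrane-bound ligands of Eph receptor tyrosine kinases, so that both partners signal only where cells touch. Several of these receptors also affect survival, and UNC5 receptors can trigger cell death when no netrin is bound.

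SK-N-BE(2) is a neuroblastoma line with amplified MYCN, and SH-SY5Y is a neuroblastoma line without that amplification, derived from SK-N-SH. Each line carried 1 of 4 lentiviral constructs after puromycin selection, with 3 libraries per group: short hairpin RNA against NDUFS6 (knockdown) and its empty vector, or the full-length human NDUFS6 coding sequence (overexpression) and its own empty vector. The labels call the transduced cells stable lines and the 3 libraries of a group biological replicates, without saying whether these came from separate infections. The sources used here do not give the number of hairpins. The p-values therefore speak of spread among libraries, part of which may be technical. NDUFS6 is an accessory subunit of respiratory complex I. Its own level followed the labels: it was 8.36-fold lower in SK-N-BE(2) knockdown libraries, 2.85-fold lower in SH-SY5Y knockdown libraries, 1.34-fold higher in SK-N-BE(2) overexpression libraries and 19.0-fold higher in SH-SY5Y overexpression libraries, each against its own empty vector. FPKM summed to between 249708 and 276091 per library, the log2 values of replicates differed with an SD of 0.190 to 0.323 over the genes tested, and all libraries carried 1 batch label. The number of reads per library is unknown from these values, and the summed levels of the adrenergic neuroblastoma markers (10 of 10 genes tested, among them HAND2 and DBH) lay between 547 and 1383 FPKM in every library.

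In the empty-vector libraries the members differed widely in level, and the lines differed in nearly all of them. Over 6 empty-vector libraries per line, the highest member by median in SK-N-BE(2) was UNC5C, a netrin receptor, with a lowest, median and highest value of 23.5, 32.9 and 38.3 FPKM, against 12.6, 19.7 and 26.8 FPKM in SH-SY5Y. The highest in SH-SY5Y was its relative UNC5B, which had 19.2, 19.7 and 20.9 FPKM in SK-N-BE(2), against 35.6, 43.2 and 47.4 FPKM in SH-SY5Y. Across all 24 libraries, 27 members were at 1 FPKM or more in each, and 33 had at least 1 such library in all 8 groups. At the other end, SEMA6B reached 1 FPKM in libraries of a single group, the SH-SY5Y knockdown empty vector, and was listed at 0 in every SK-N-BE(2) library. NTN4, a secreted netrin, was at 0.0458 FPKM or less in the SK-N-BE(2) empty-vector libraries, against 0.631 to 1.84 FPKM in the SH-SY5Y empty-vector libraries.

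Between the lines, 52 members were called in limma's moderated test on log2(FPKM + 1) at an adjusted p under 0.05, 19 higher and 33 lower in SK-N-BE(2); that is 94.5% of members, against 77.3% of the 15903 rows tested (33.5% higher and 43.8% lower). A call has this meaning throughout, with p-values adjusted by Benjamini and Hochberg's method over those 15903 rows. NRP2, a coreceptor of class 3 semaphorins, was at 12.9 to 17.4 FPKM in SK-N-BE(2) empty-vector libraries and at 0.464 to 2.32 FPKM in those of SH-SY5Y. PLXNA2 had the opposite placing, with 0.732 to 2.05 FPKM in SK-N-BE(2) and 12.7 to 20.0 FPKM in SH-SY5Y, and so had the transmembrane ligand EFNB3, with 1.53 to 2.95 FPKM in SK-N-BE(2) and 17.2 to 19.8 FPKM in SH-SY5Y. For these 3 genes the lines did not overlap. The differences were 2.89 for NRP2 (SE 0.0556, adjusted p = 4e-20), -2.92 for PLXNA2 (SE 0.0542, adjusted p = 2.3e-20) and -2.61 for EFNB3 (SE 0.0533, adjusted p = 1e-19) on the log2(FPKM + 1) scale in limma's test.

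The 4 constructs moved different numbers of guidance genes. Knockdown of NDUFS6 in SK-N-BE(2) left 16 members higher and 19 lower than the knockdown empty vector, 63.6% of the 55 members, against 55.7% of all rows tested (27.4% higher and 28.3% lower). In SH-SY5Y knockdown 28 members were higher and 21 lower, 89.1% of members against 56% of all rows (26.3% higher and 29.6% lower), and only EFNA1, NTN3, PLXNB2, SEMA4A, SEMA4F and SLIT3 were not called. Overexpression in SK-N-BE(2) left 8 members higher and 15 lower, 41.8% of members against 29.7% of all rows (12.9% higher and 16.8% lower). In SH-SY5Y overexpression 5 members were higher and 28 lower, 60% of members against 32.6% of all rows (15.4% higher and 17.2% lower). The median log2 change of the members was 0.00, 0.15, -0.003 and -0.24 in these 4 comparisons in the order given, and that of all rows lay between -0.013 and -0.008. Scaling moved the balance of calls: with values rescaled to TPM, a scale with the same sum in every library, the members called were 22 higher and 18 lower in SK-N-BE(2) knockdown and 22 higher and 23 lower in SH-SY5Y knockdown, though no called member reversed its direction. Of all rows called, the share called higher was then 60.8%, 35.4%, 32.7% and 54.9% in the 4 comparisons, against 49.2%, 47%, 43.4% and 47.1% as deposited, and 53.8% in SK-N-BE(2) overexpression with median-of-ratios scaling. A change of 2-fold or more on the log2(FPKM + 1) scale was found for 5 rises and 1 fall in SK-N-BE(2) knockdown, for 3 rises and 4 falls (NTNG2, SEMA6B, SLIT1 and UNC5A) in SH-SY5Y knockdown, and for none of the members with overexpression. Of all 15903 rows, 507 rose and 218 fell that far in SK-N-BE(2) knockdown, and 411 and 635 in SH-SY5Y knockdown. With overexpression only 28 rose and 18 fell in SK-N-BE(2), and 22 and 45 in SH-SY5Y. The absence of such members there is therefore not read as a trait of guidance genes. SEMA6B was a member only through the group it fell from. In SK-N-BE(2) overexpression the counts of called members rest on single libraries. The falls numbered 8 without overexpression replicate 2, and the rises numbered 5 without empty-vector replicate 2. Fitted on its own groups alone, that comparison gave 4 rises and 3 falls. That fit used fewer libraries and is given without a share of all rows, so the drop is not read as a result about the members.

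**Figure D1:**
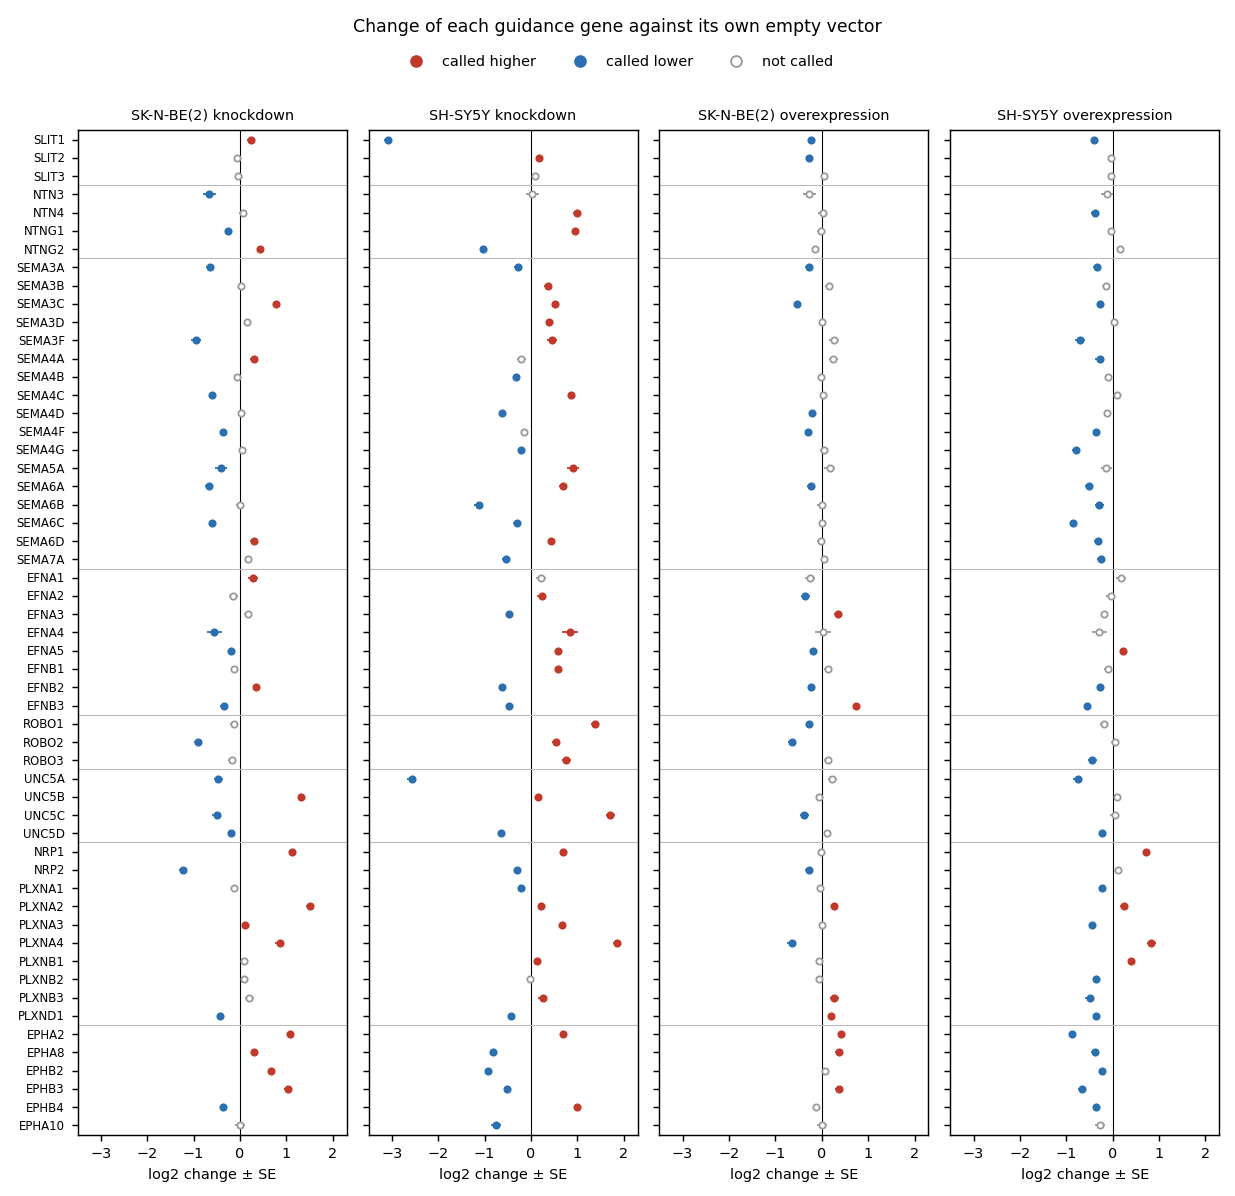
Log2 change (on the log2(FPKM + 1) scale, with its standard error) of each of the 55 members in the 4 construct comparisons, each against its own empty vector (n = 3 libraries per group). Filled red points were called higher, filled blue points lower and open points were not called; the horizontal lines separate families. SLIT1 at -3.09 and UNC5A at -2.57 in SH-SY5Y knockdown lie farthest from 0.

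The empty vectors of a line also differed from each other, and many calls depend on which of them a construct is set against. Between the SK-N-BE(2) vectors 7 members were higher and 25 lower in the knockdown empty vector than in the overexpression empty vector, 58.2% of members against 34.5% of all rows (15.5% higher and 19% lower). Between the SH-SY5Y vectors 26 were higher and 8 lower in the knockdown empty vector, 61.8% against 36.2% of all rows (18.4% higher and 17.8% lower). PLXNA4 had 0.491, 0.479 and 0.576 FPKM in the SK-N-BE(2) knockdown empty vector, against 3.05, 2.8 and 3.09 FPKM in the overexpression empty vector, with no overlap (log2 difference -1.39, SE 0.0931, limma adjusted p = 6.4e-10). NTNG1, a netrin-G held on the membrane by a lipid anchor, and SEMA3C, a secreted semaphorin, were lower there as well, by log2 differences of -1.22 and -1.10. In SH-SY5Y, NRP1 had 7.07, 6.48 and 6.38 FPKM in the knockdown empty vector, against 1.29, 1.14 and 1.3 FPKM in the overexpression empty vector (log2 difference 1.77, SE 0.0623, limma adjusted p = 5.1e-14). EFNB2, the transmembrane ligand of EPHB4, was at 11, 10.6 and 9.58 FPKM in the SH-SY5Y knockdown empty vector and at 25.0, 24 and 24.6 FPKM in the overexpression empty vector, again without overlap. Which property of the vectors or cells goes with these differences was not tested.

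Each construct was therefore also set against the other empty vector of its line, where the share of all rows called was 47.7% for SK-N-BE(2) knockdown (22.5% higher, 25.2% lower) and 58.2% for SH-SY5Y knockdown (26.5% higher, 31.7% lower). For overexpression it was 40.3% in SK-N-BE(2) (20.3% higher, 20% lower) and 55.4% in SH-SY5Y (26.5% higher, 28.9% lower). Called the same way against both vectors were 6 rises and 14 falls in SK-N-BE(2) knockdown (17.6% and 17.8% of all rows), 26 rises and 13 falls in SH-SY5Y knockdown (19.1% and 23.4% of all rows), 6 rises and 2 falls in SK-N-BE(2) overexpression (6.13% and 8.14% of all rows), and 3 rises and 25 falls in SH-SY5Y overexpression (12.6% and 14.4% of all rows). These counts are not an independent check, because the vectors themselves differed. In the knockdown empty vector of SH-SY5Y 26 members were higher and 8 lower than in the overexpression one. Exchange enlarges SH-SY5Y knockdown rises and overexpression falls of those 26. In SK-N-BE(2) 7 were higher and 25 lower. Exchange enlarges knockdown falls and overexpression rises of those 25. Such calls were bound to hold. The rises of SK-N-BE(2) knockdown that held were EPHA2, EPHA8, EPHB3, NRP1, PLXNA2 and UNC5B. Those of SK-N-BE(2) overexpression were EFNB3, EPHA2, EPHA8, EPHB3, PLXNA2 and PLXND1, with falls of NRP2 and UNC5C. EPHA8 was below 1 FPKM in every SK-N-BE(2) library. In SH-SY5Y overexpression the rises that held were EFNA5, PLXNA4 and PLXNB1.

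**Figure D2:**
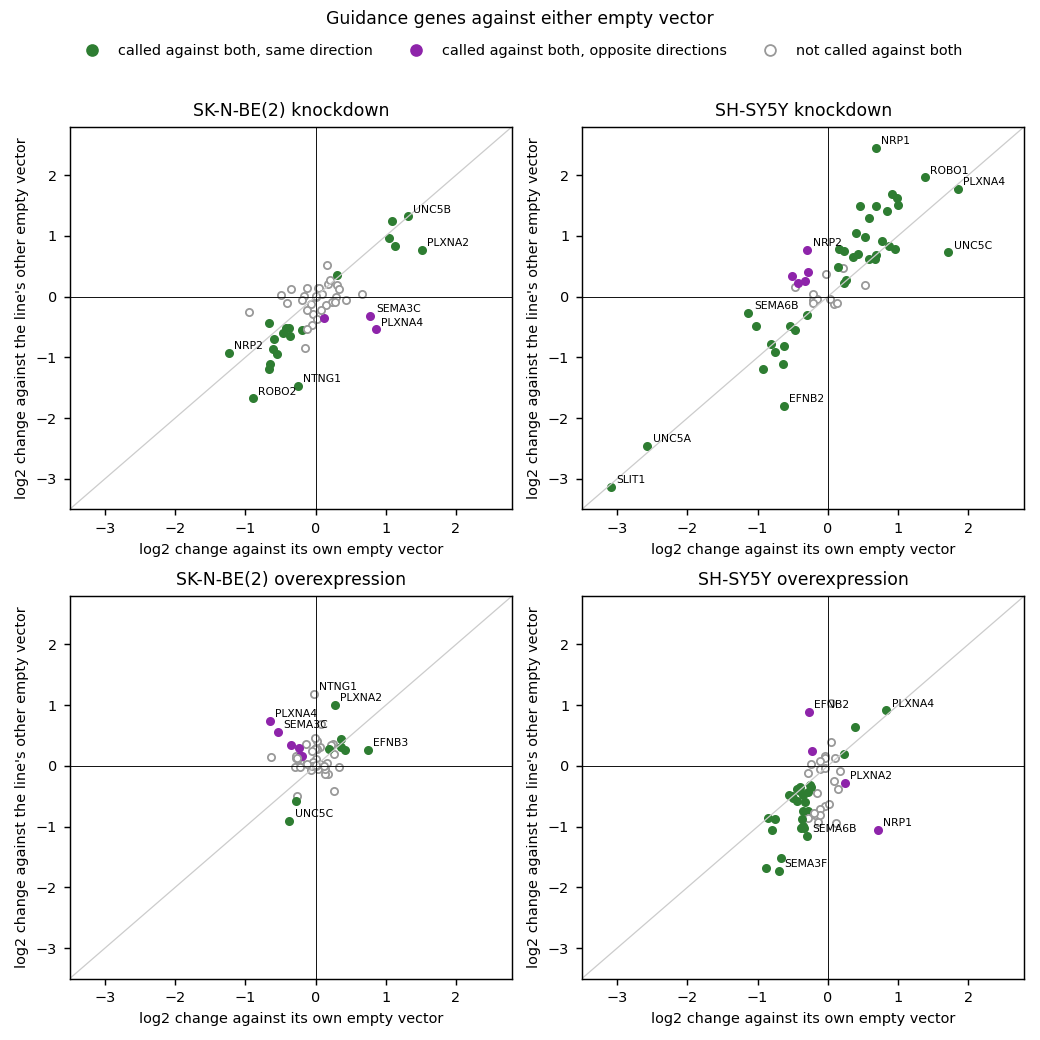
Log2 change of each member against its own empty vector (horizontal axis) and against the other empty vector of the same line (vertical axis), in 4 panels for the 4 constructs. Green points were called in the same direction against both, purple points in opposite directions and open points not against both; the diagonal marks equal changes. SLIT1 and UNC5A in SH-SY5Y knockdown lie near the diagonal, and NRP1 in SH-SY5Y overexpression lies at 0.71 against its own vector and -1.05 against the other.

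Among the Slits, SLIT1 changed most, and in SH-SY5Y. It had 0.396, 0.469 and 0.253 FPKM in SH-SY5Y knockdown, against 10.2, 11.1 and 10.7 FPKM in the empty vector. Every knockdown library was below every other SH-SY5Y library, and below every SK-N-BE(2) library. The mean was 28.5-fold lower (0.373 ± 0.11 against 10.6 ± 0.442 FPKM, SD, n = 3 each; log2 change -3.09, SE 0.0721, limma adjusted p = 9e-18), and the log2 change against the other empty vector was -3.13. SLIT1 (ENSG00000187122, chromosome 10, 96998038 to 97185920, minus strand, GRCh38) shares exons on its strand with the read-through gene ARHGAP19-SLIT1, so its FPKM may hold reads of both. In SH-SY5Y overexpression SLIT1 was at 8.09, 8.21 and 8.03 FPKM, against 11.6, 10.5 and 10.9 FPKM (log2 change -0.39). SK-N-BE(2) knockdown gave a small rise, with 2.41, 3.24 and 3.09 FPKM against 2.27, 2.28 and 2.41 FPKM, where the groups overlapped and the log2 change was 0.23 against its own vector and -0.082, not called, against the other.

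SLIT3 was the most abundant Slit, at 9.08 to 13.5 FPKM in SK-N-BE(2) libraries and 28.0 to 34.5 FPKM in SH-SY5Y libraries, and it was called in none of the 4 comparisons, with log2 changes from -0.04 to 0.09. SLIT2 stayed at 2.29 FPKM or less. It was called higher in SH-SY5Y knockdown (log2 change 0.17, a call lost when values were rescaled to TPM) and lower in SK-N-BE(2) overexpression (-0.28; 0.13, not called, against the other vector).

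All 3 Robo receptors rose in SH-SY5Y knockdown, against 26.3% of all rows, and none of them was called higher in the other 3 comparisons, also at an unadjusted p under 0.05 in limma's test. ROBO1 had 32.8, 31.8 and 30.8 FPKM in SH-SY5Y knockdown, against 11.8, 11.7 and 11.2 FPKM in the empty vector. The groups were far apart, and the knockdown libraries were above all other libraries of both lines. The mean was 2.75-fold higher (log2 change 1.38, SE 0.0800, limma adjusted p = 9.7e-12; 1.96 against the other vector). ROBO2 rose by a log2 change of 0.54 (0.19 against the other vector, not called) and ROBO3, which modifies Robo signalling in commissural axons, by 0.77. In SK-N-BE(2) knockdown ROBO2 fell to 1.14, 1.28 and 1.38 FPKM, against 3.28, 3.51 and 2.89 FPKM in the empty vector, with no overlap (log2 change -0.90, SE 0.0868, limma adjusted p = 3.1e-08; -1.68 against the other vector). ROBO1 in the same comparison overlapped, with 11.7 to 14.4 FPKM against 13.8 to 14.7 FPKM, and was not called. SK-N-BE(2) overexpression had ROBO2 at 4.38, 3.06 and 3.58 FPKM, against 6.08, 5.83 and 6.83 FPKM, a log2 change of -0.64 that was 0.14 against the other vector and not called there. ROBO1 was lower in that comparison (-0.27; 0.14, not called, against the other vector) and ROBO3 in SH-SY5Y overexpression (-0.44).

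The UNC5 receptors moved in opposite directions within one line. In SH-SY5Y knockdown UNC5A had 1.0, 1.17 and 0.949 FPKM, against 10.3, 12.2 and 10.9 FPKM in the empty vector, and UNC5C had 46.6, 47.2 and 40.4 FPKM, against 12.7, 13.3 and 12.6 FPKM. Neither gene's libraries overlapped between the groups. UNC5A (ENSG00000113763, chromosome 5, 176810477 to 176880898, plus strand, GRCh38) was 10.7-fold lower, with a log2 change of -2.57 (SE 0.0946, limma adjusted p = 9.3e-15; -2.46 against the other vector). UNC5C (ENSG00000182168, chromosome 4, 95162504 to 95549206, minus strand, GRCh38) was 3.47-fold higher, with a log2 change of 1.72 (SE 0.0979, limma adjusted p = 8e-12), but 0.73 against the other vector, in which it was at 26.7, 26.0 and 26.8 FPKM. In SK-N-BE(2) knockdown the receptor that rose was UNC5B, with 56.4, 46.9 and 51.0 FPKM, against 19.7, 19.5 and 20.8 FPKM. The mean was 2.57-fold higher, with a log2 change of 1.32 (SE 0.0575, limma adjusted p = 1.95e-13) and 1.32 against the other vector as well. UNC5B in SH-SY5Y knockdown was at 51.5, 54.8 and 51.9 FPKM, against 47.4, 47.4 and 47.3 FPKM in the empty vector. That rise was small (0.15) and its call was lost on rescaling to TPM.

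UNC5A fell in SK-N-BE(2) knockdown too, to 2.3, 3.18 and 3.63 FPKM, against 4.18, 5.02 and 4.43 FPKM (log2 change -0.47), and in SH-SY5Y overexpression, to 5.46, 5.80 and 5.63 FPKM, against 10.6, 10.5 and 9.58 FPKM (-0.76). UNC5C fell in SK-N-BE(2) knockdown (-0.50) and overexpression (-0.38); the first was 0.03, not called, against the other vector. UNC5D stayed at 1.70 FPKM or less and fell in SK-N-BE(2) knockdown (-0.19; -0.06, not called, against the other vector), SH-SY5Y knockdown (-0.64) and SH-SY5Y overexpression (-0.22, lost on rescaling to TPM; 0.24, called higher, against the other vector). In SK-N-BE(2) UNC5D had 0.00833 to 0.0291 FPKM with knockdown, against 0.142 to 0.209 FPKM, all below the threshold. Between the lines, the knockdown change in SK-N-BE(2) minus that in SH-SY5Y was 2.10 for UNC5A, -2.21 for UNC5C and 1.17 for UNC5B, each called.

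Of the genes named as netrins, NTN1 was at 0.0959 FPKM or less and was no member. NTN4 rose in SH-SY5Y knockdown to 4.60, 4.98 and 3.73 FPKM, against 1.63, 1.71 and 1.84 FPKM (log2 change 0.99, SE 0.0891, limma adjusted p = 8.4e-09), and fell in SH-SY5Y overexpression to 0.198, 0.339 and 0.532 FPKM, against 0.823, 0.842 and 0.631 FPKM (-0.39). The netrin-Gs moved in opposite directions in SH-SY5Y knockdown: NTNG1 rose by 0.96 and NTNG2 changed by -1.02, with 0.407, 0.564 and 0.418 FPKM against 1.88, 1.89 and 2.15 FPKM. In SK-N-BE(2) knockdown NTNG1 fell (-0.25) and NTNG2 rose (0.43, but -0.06 and not called against the other vector). NTN3 was near the threshold of 1 FPKM in all groups and fell in SK-N-BE(2) knockdown alone (-0.67). In SK-N-BE(2) overexpression 0 netrins were called in limma's test, and 0 had an unadjusted p under 0.05.

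**Figure D3:**
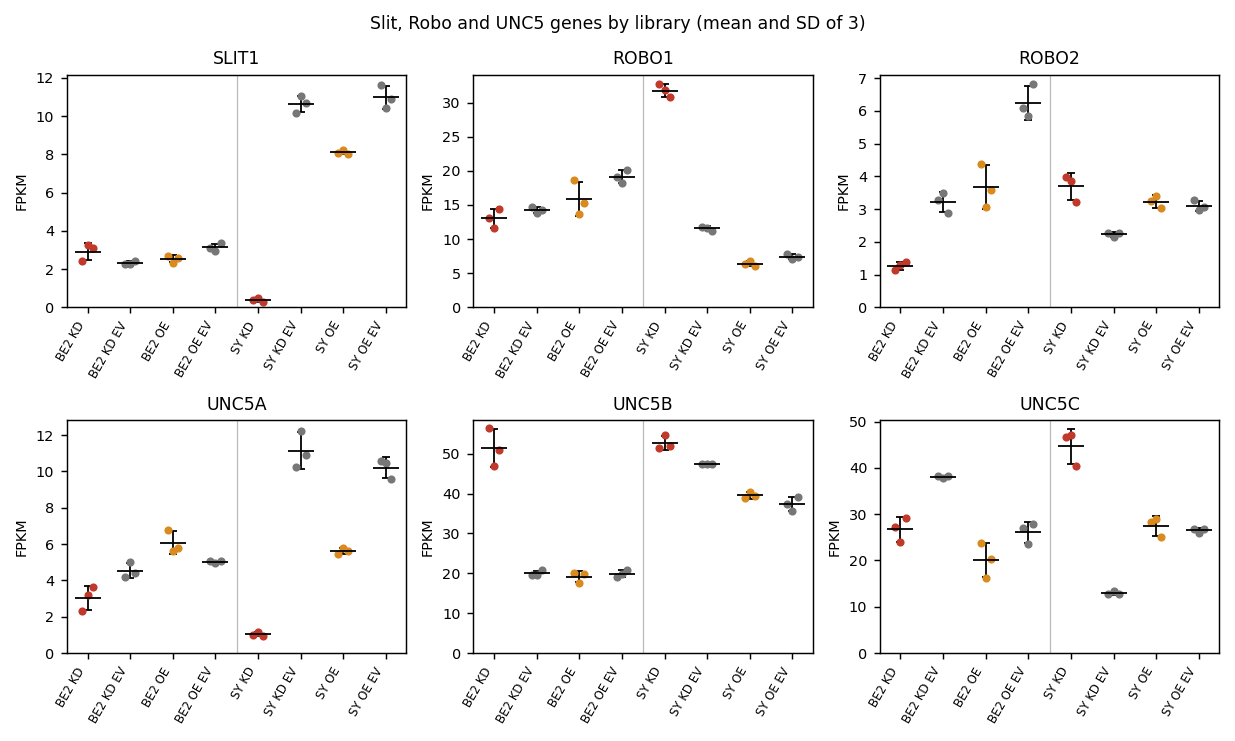
FPKM of SLIT1, ROBO1, ROBO2, UNC5A, UNC5B and UNC5C in each library (points), with the mean and SD of 3 libraries (bars). BE2 is SK-N-BE(2), SY is SH-SY5Y, KD is knockdown, OE is overexpression and EV is the empty vector of the construct named before it; the vertical line separates the cell lines. SH-SY5Y knockdown stands below all other groups for SLIT1 and UNC5A and above them for ROBO1.

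To show what lies before an annotated start of the genes that fell and rose most in SH-SY5Y knockdown, the 250 bases before the RefSeq start of SLIT1 and UNC5A (lower) and of PLXNA4 and UNC5C (higher) are given from GRCh38.p14, 5′ to 3′ on the strand of the gene. Capitals mark GGGCGG, the core of the GC box bound by SP1, or its reverse complement.
SLIT1, chr10:97185960-97186209, minus strand: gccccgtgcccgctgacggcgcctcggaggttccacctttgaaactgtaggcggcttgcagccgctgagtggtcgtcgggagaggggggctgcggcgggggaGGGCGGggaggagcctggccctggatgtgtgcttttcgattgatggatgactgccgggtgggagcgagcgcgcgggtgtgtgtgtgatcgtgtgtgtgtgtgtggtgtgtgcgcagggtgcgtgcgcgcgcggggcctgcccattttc
UNC5A, chr5:176810309-176810558, plus strand: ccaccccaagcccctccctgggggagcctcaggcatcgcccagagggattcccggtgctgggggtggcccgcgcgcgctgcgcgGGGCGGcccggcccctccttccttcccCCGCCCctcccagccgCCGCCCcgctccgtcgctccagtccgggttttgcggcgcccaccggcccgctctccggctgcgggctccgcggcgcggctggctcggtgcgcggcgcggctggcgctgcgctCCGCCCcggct
PLXNA4, chr7:132576471-132576720, minus strand: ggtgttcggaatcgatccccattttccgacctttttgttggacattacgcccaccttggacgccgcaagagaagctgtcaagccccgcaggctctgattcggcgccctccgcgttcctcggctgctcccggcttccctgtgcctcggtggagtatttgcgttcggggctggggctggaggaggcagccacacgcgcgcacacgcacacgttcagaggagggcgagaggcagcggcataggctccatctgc
UNC5C, chr4:95548974-95549223, minus strand: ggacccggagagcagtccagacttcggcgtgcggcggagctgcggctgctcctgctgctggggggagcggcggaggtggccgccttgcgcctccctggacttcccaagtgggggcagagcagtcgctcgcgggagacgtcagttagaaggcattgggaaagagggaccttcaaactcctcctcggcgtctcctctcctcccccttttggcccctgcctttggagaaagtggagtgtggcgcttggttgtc
The GC box core was present once in the SLIT1 window and 4 times in that of UNC5A, and was not in the letters of the PLXNA4 and UNC5C windows. All 4 windows were rich in G and C, at 68.4% for SLIT1, 81.2% for UNC5A, 63.6% for PLXNA4 and 65.6% for UNC5C. RefSeq windows of 250 bases were found for 45 of the 55 members (70 windows, since some genes have several starts), and 70% of those windows held GGGCGG on either strand, against 42.6% of all 35116 windows. Genes with several starts are counted repeatedly in these shares. The set of all windows was not matched to the members by expression or by G and C content, so no trait of guidance genes was tested. The E-box CACGTG was in 4.29% of member windows against 6.34% of all, TATAAA in 1.43% against 10.7%, TGANTCA, which AP-1 binds, in 0% against 6.57%, and TGATGNAA, which ATF4 binds with its partners, in 2.86% against 3.14%. The motifs were searched on both strands, none of these letter strings contains another, and a match is a run of letters only. RefSeq and GENCODE differ in the start of these genes: the PLXNA4 window lies wholly, and the UNC5A and UNC5C windows partly, inside the GENCODE span of the gene, so that of the 4 windows only that of SLIT1 lies wholly upstream of the GENCODE start.

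Among the secreted class 3 semaphorins SEMA3C had the highest mean in every group. In both knockdowns SEMA3C was higher than in the knockdown empty vector: it had 20.7, 19.1 and 21.0 FPKM in SK-N-BE(2) knockdown, against 11.3, 11.2 and 11.6 FPKM, and 66.4, 67.1 and 64.9 FPKM in SH-SY5Y knockdown, against 46.5, 44.5 and 46.0 FPKM. With overexpression it was lower in both lines, at 19.3, 15.6 and 17.2 FPKM against 25.1, 24.7 and 26.7 FPKM in SK-N-BE(2), and at 27.1, 27.7 and 26.3 FPKM against 33.3, 32.2 and 33.5 FPKM in SH-SY5Y. No pair of groups overlapped, and the log2 changes were 0.78, 0.52, -0.54 and -0.28. Against the other vector the SH-SY5Y changes kept their direction (0.98 and -0.74), whereas those in SK-N-BE(2) turned round, to -0.32 and 0.56, and the libraries of both SK-N-BE(2) constructs lay between those of the vectors.

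SEMA3F, a ligand of NRP2, moved against SEMA3C in SK-N-BE(2) knockdown. It fell to 2.37, 3.76 and 3.88 FPKM in SK-N-BE(2) knockdown, against 6.99, 7.75 and 6.94 FPKM (log2 change -0.94, SE 0.108, limma adjusted p = 3.1e-07), a change of -0.26, not called, against the other vector. In SH-SY5Y it rose with knockdown, to 4.31, 5.04 and 4.84 FPKM, against 3.45, 3.36 and 2.74 FPKM (0.46), and fell with overexpression, to 0.308, 0.352 and 0.127 FPKM, against 0.947, 1.12 and 1.05 FPKM (-0.70). SEMA3A, the ligand of NRP1, fell in all 4 comparisons against its own vector, by log2 changes of -0.65 and -0.28 with knockdown and -0.28 and -0.34 with overexpression (SK-N-BE(2) first in each pair); against the other vector the SK-N-BE(2) knockdown and SH-SY5Y overexpression falls were larger (-1.10 and -1.02), the SH-SY5Y knockdown change was 0.40, called higher, and the SK-N-BE(2) overexpression change was 0.17, not called. SEMA3B and SEMA3D, both under 1.6 FPKM, rose in SH-SY5Y knockdown (0.36 and 0.40) and were not called elsewhere. SEMA3B reached 1 FPKM in 4 libraries, all of SH-SY5Y knockdown or its empty vector. Without the knockdown libraries it would not have been a member, so the threshold itself favoured its rise. SEMA3B shares exons with the microRNA gene MIR6872.

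Among the membrane-bound semaphorins, SEMA6A, a ligand of PLXNA2 and PLXNA4, moved in opposite directions in the knockdowns: 3.73, 4.05 and 4.40 FPKM in SK-N-BE(2) knockdown, against 7.30, 7.08 and 6.68 FPKM (log2 change -0.67), and 2.90, 3.04 and 2.27 FPKM in SH-SY5Y knockdown, against 1.27, 1.17 and 1.5 FPKM (0.69). The groups were apart in SK-N-BE(2) and in SH-SY5Y, and the knockdown changes of the lines differed by -1.36 (SE 0.116, limma adjusted p = 5e-09). With overexpression SEMA6A fell by -0.24 in SK-N-BE(2), a call lost under median-of-ratios scaling and turned to 0.29 against the other vector, and by -0.51 in SH-SY5Y. SEMA6D rose in both knockdowns (0.30 and 0.43; 0.00 in SK-N-BE(2) against the other vector) and fell in SH-SY5Y overexpression (-0.33).

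SEMA6C was among the larger falls in SH-SY5Y overexpression, at 2.48, 2.42 and 2.26 FPKM, against 5.48, 4.70 and 5.14 FPKM (log2 change -0.85), and fell in both knockdowns (-0.60 and -0.30). SEMA6B, near the threshold, had 0.0954, 0.186 and 0.0901 FPKM in SH-SY5Y knockdown, against 1.59, 1.14 and 1.67 FPKM (-1.13), and -0.27 against the other vector, whose libraries were at 0.160 to 0.562 FPKM. It was a member through the 3 libraries of the SH-SY5Y knockdown empty vector alone, so the threshold itself favoured a fall from that group, and its change is given as a description.

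SEMA4G fell in SH-SY5Y overexpression to 2.04, 2.12 and 2.43 FPKM, against 4.75, 4.41 and 4.44 FPKM, without overlap (log2 change -0.79, SE 0.0775, limma adjusted p = 2.3e-07). SEMA4C, which binds PLXNB2, fell in SK-N-BE(2) knockdown (-0.61) and rose in SH-SY5Y knockdown (0.87), and SEMA5A did likewise (-0.41, which was -0.10 and not called against the other vector, and 0.91). SEMA4F fell in 3 comparisons (-0.36 in SK-N-BE(2) knockdown, -0.30 and -0.36 with overexpression), of which the SK-N-BE(2) overexpression fall was -0.01 against the other vector. SEMA4D, the ligand of PLXNB1, fell in SH-SY5Y knockdown (-0.62) and SK-N-BE(2) overexpression (-0.22; 0.16, called higher, against the other vector), and SEMA4B fell in SH-SY5Y knockdown (-0.33; 0.26, called higher, against the other vector). SEMA4A, at 1.43 FPKM or less throughout, rose in SK-N-BE(2) knockdown (0.30, but 0.19 and not called against the other vector). It fell in SH-SY5Y overexpression (-0.28). Only SK-N-BE(2) knockdown and overexpression libraries reached 1 FPKM of SEMA4A, so the threshold itself favoured the rise. SEMA7A, which is anchored by a lipid, fell in SH-SY5Y with knockdown (-0.54) and overexpression (-0.26, lost on rescaling to TPM). In all, 11 of 17 semaphorins were called lower and 0 higher in SH-SY5Y overexpression, against 17.2% of all rows lower and 15.4% higher. At an unadjusted p under 0.05 in limma's test 13 were lower and 0 higher.

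Plexins and neuropilins included the largest rises of both knockdowns. In SK-N-BE(2) knockdown PLXNA2 had 4.09, 3.55 and 4.33 FPKM, against 0.771, 0.747 and 0.732 FPKM, and NRP1 had 2.90, 3.01 and 3.5 FPKM, against 0.888, 0.787 and 0.998 FPKM. Neither gene's groups overlapped. PLXNA2 was 5.32-fold higher (log2 change 1.51, SE 0.0767, limma adjusted p = 1.9e-12; 0.77 against the other vector) and NRP1 3.52-fold higher (1.13, SE 0.0623, limma adjusted p = 6.8e-12; 0.84 against the other vector). NRP2 fell in the same comparison, to 5.93, 6.71 and 7.64 FPKM, against 17.0, 17.4 and 17.2 FPKM (log2 change -1.24, SE 0.0786, limma adjusted p = 5.9e-11; -0.93 against the other vector), so that the neuropilins moved in opposite directions. In SH-SY5Y knockdown NRP1 rose (10.8, 11.4 and 11.6 FPKM, against 7.07, 6.48 and 6.38 FPKM; 0.69) and NRP2 fell (-0.29), but NRP2 was called higher, at 0.77, against the other vector. PLXNA2 rose by 0.22 there, a call lost on rescaling to TPM, and by 0.27 and 0.24 with overexpression in SK-N-BE(2) and SH-SY5Y; the last was -0.28, called lower, against the other vector.

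PLXNA4 (ENSG00000221866, chromosome 7, 132123332 to 132648688, minus strand, GRCh38), a receptor that pairs with NRP1 for SEMA3A, had 50.3, 49.9 and 42.8 FPKM in SH-SY5Y knockdown, against 12.0, 12.8 and 12.5 FPKM. These libraries held the highest PLXNA4 values of the series. The mean was 3.83-fold higher (log2 change 1.85, SE 0.0931, limma adjusted p = 1.1e-12; 1.77 against the other vector). It was also higher in SH-SY5Y overexpression, at 25.0, 26.2 and 22.0 FPKM, against 13.2, 12.8 and 13.6 FPKM (0.84; 0.92 against the other vector). In SK-N-BE(2), where it was at 3.09 FPKM or less, its calls depended on the vector: knockdown libraries had 1.65, 1.61 and 1.99 FPKM, which was 0.86 above the knockdown empty vector and -0.54 relative to the overexpression empty vector. Overexpression libraries had 1.85, 1.08 and 1.73 FPKM, a change of -0.65 against their own vector and of 0.74 against the other.

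NRP1 in SH-SY5Y overexpression had 2.71, 2.86 and 2.47 FPKM, against 1.29, 1.14 and 1.3 FPKM in its own vector (log2 change 0.71), but -1.05 against the knockdown empty vector. PLXNA3 rose in both knockdowns (0.11, which was -0.35 against the other vector, and 0.68) and fell in SH-SY5Y overexpression (-0.44). PLXND1, a receptor for SEMA3E, fell in both knockdowns (-0.42 in each; 0.22, called higher, in SH-SY5Y against the other vector) and in SH-SY5Y overexpression (-0.36), and rose in SK-N-BE(2) overexpression (0.19, lost on rescaling to TPM). PLXNB1, the SEMA4D receptor, rose in SH-SY5Y overexpression to 5.32, 5.64 and 5.32 FPKM, against 3.88, 4.10 and 3.73 FPKM (0.39). PLXNB2 was called in SH-SY5Y overexpression alone (-0.35). PLXNA1 changed by -0.21 with knockdown (-0.10, not called, against the other vector) and by -0.24 with overexpression in SH-SY5Y. PLXNB3, at 1.64 FPKM or less, shares exons on its strand with SRPK3 and was called higher in SH-SY5Y knockdown (0.25, lost on rescaling to TPM) and SK-N-BE(2) overexpression (0.27) and lower in SH-SY5Y overexpression (-0.50).

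**Figure D4:**
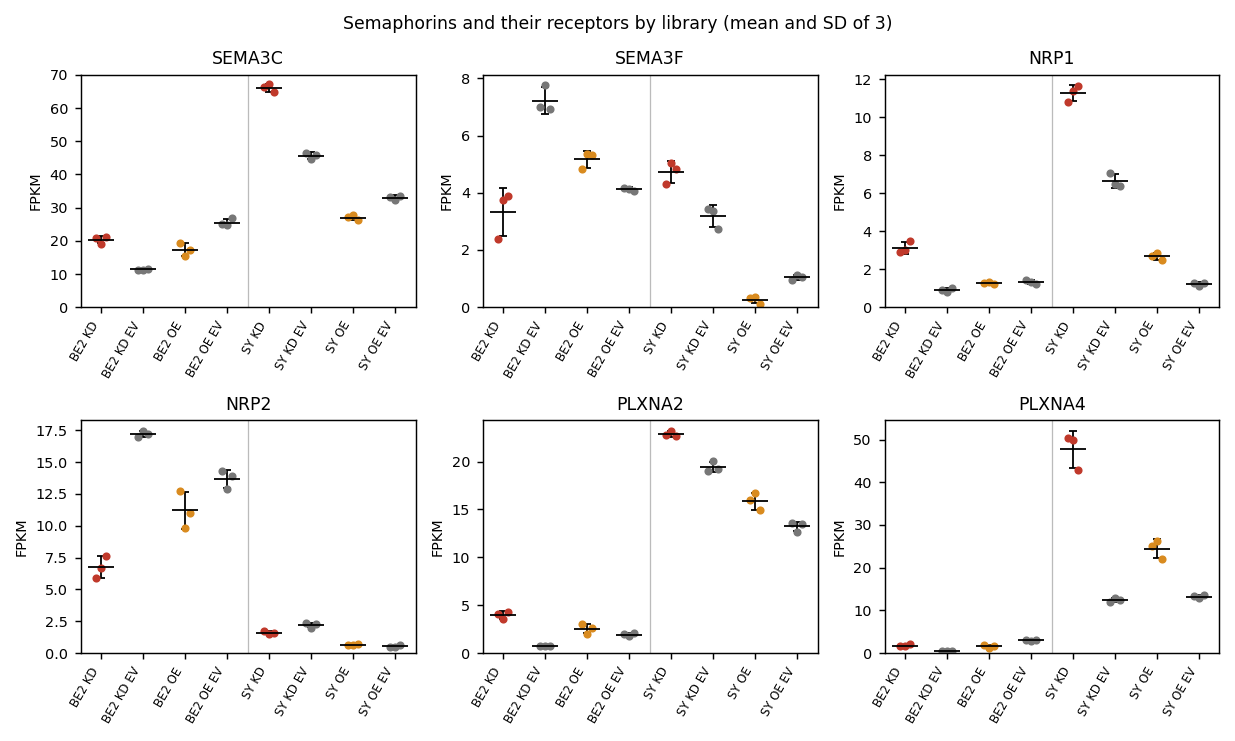
FPKM of SEMA3C, SEMA3F, NRP1, NRP2, PLXNA2 and PLXNA4 in each library (points), with the mean and SD of 3 libraries (bars). BE2 is SK-N-BE(2), SY is SH-SY5Y, KD is knockdown, OE is overexpression and EV is the empty vector of the construct named before it. NRP1 in the SH-SY5Y empty vectors, at 6.38 to 7.07 FPKM for knockdown and 1.14 to 1.3 FPKM for overexpression, shows how far the vectors of a line can differ.

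In SK-N-BE(2) knockdown 4 of the 6 Eph receptors were called higher (EPHA2, EPHA8, EPHB2 and EPHB3) and EPHB4 was called lower, against 27.4% of all rows higher and 28.3% lower. EPHA2 had 9.71, 9.57 and 9.38 FPKM, against 4.15, 3.60 and 4.22 FPKM, and EPHB3 had 4.63, 4.60 and 5.22 FPKM, against 1.98, 1.85 and 1.64 FPKM. Both were separated from the empty vector by more than the spread of the libraries, with log2 changes of 1.08 (SE 0.0537, limma adjusted p = 1.3e-12) and 1.04 (SE 0.0846, limma adjusted p = 2.3e-09), and of 1.24 and 0.97 against the other vector. EPHB2 rose by 0.67, but by 0.05, not called, against the other vector. EPHA8 was below the threshold in every SK-N-BE(2) library, with 0.311 to 0.460 FPKM in knockdown, against 0.0378 to 0.173 FPKM. With overexpression EPHA8 had 0.324 to 0.448 FPKM, against 0.0578 to 0.0705 FPKM. SK-N-BE(2) overexpression also left EPHA2 (0.42), EPHA8 (0.37) and EPHB3 (0.37) higher, 3 of 6 against 12.9% of all rows. EPHB4 was called lower there on rescaling to TPM.

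In SH-SY5Y overexpression EPHA2 fell to 2.93, 3.22 and 3.28 FPKM, against 6.94, 6.68 and 6.16 FPKM (log2 change -0.87, SE 0.0537, limma adjusted p = 6.3e-10), and EPHB3 to 0.787, 0.920 and 1.27 FPKM, against 2.24, 2.3 and 1.88 FPKM (-0.66). EPHA8, EPHB2 and EPHB4 were lower as well (-0.39, -0.24 and -0.36; EPHB2 was at 0.03, not called, against the other vector), so that 5 of 6 Eph receptors were called lower, against 17.2% of all rows; EPHA10, which lacks kinase activity, was not called (-0.28). In SH-SY5Y knockdown EPHA2 and EPHB4 rose and the other 4 fell. EPHA2 had 19.8, 20.2 and 21.2 FPKM there, against 12.0, 12.1 and 12.6 FPKM (0.69; 1.5 against the other vector), and EPHB4 had 16.5, 17.3 and 17.1 FPKM, against 7.75, 8.27 and 8.03 FPKM (1.0; 1.5 against the other vector). EPHB2 fell to 1.92, 1.90 and 1.72 FPKM, against 4.29, 4.70 and 4.17 FPKM (-0.92; -1.19 against the other vector), and EPHB3 changed by -0.50, a direction that was 0.34, called higher, against the other vector. EPHA8 and EPHA10, both at 1.14 FPKM or less, fell by -0.81 and -0.75. Both reached 1 FPKM only in SH-SY5Y empty-vector libraries. The threshold itself therefore favoured their falls in SH-SY5Y, including that of EPHA8 with overexpression. EPHA8 lies 107 kb from EPHB2 on chromosome 1.

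Among the ephrins, EFNB2 fell in SH-SY5Y knockdown to 6.89, 6.54 and 5.68 FPKM, against 11, 10.6 and 9.58 FPKM (log2 change -0.63; -1.80 against the other vector), the comparison in which its receptor EPHB4 rose. It rose in SK-N-BE(2) knockdown (0.34; 0.13, not called, against the other vector), and fell with overexpression in SK-N-BE(2) (-0.23; -0.01 against the other vector) and in SH-SY5Y (-0.27; 0.90, called higher, against the other vector). EFNB3 rose in SK-N-BE(2) overexpression to 3.66, 3.59 and 3.23 FPKM, against 1.57, 1.97 and 1.53 FPKM (log2 change 0.74, SE 0.0753, limma adjusted p = 9.9e-07; 0.27 against the other vector), the largest rise of a member there, and fell in SH-SY5Y overexpression to 11.6, 12.0 and 14.1 FPKM, against 19.8, 18.1 and 18.6 FPKM (-0.55). With knockdown it fell in both lines (-0.35, which was 0.12 and not called against the other vector, and -0.47). EFNB1 rose in SH-SY5Y knockdown alone (0.59).

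Of the lipid-anchored A ephrins, EFNA5 rose in SH-SY5Y with knockdown (0.58) and overexpression (0.23) and fell in SK-N-BE(2) with both (-0.19 and -0.20; the first was lost on rescaling to TPM and the second was 0.17, called higher, against the other vector). EFNA3 rose in SK-N-BE(2) overexpression (0.34; -0.02 against the other vector) and fell in SH-SY5Y knockdown (-0.47; 0.16, not called, against the other vector), and EFNA4 fell in SK-N-BE(2) knockdown (-0.55) and rose in SH-SY5Y knockdown (0.84). EFNA3 and EFNA4, 9.32 kb apart on chromosome 1, share exons on their strand with the annotated transcript AL691442.1, and their split of reads is uncertain. EFNA2 rose in SH-SY5Y knockdown (0.24, lost on rescaling to TPM) and fell in SK-N-BE(2) overexpression (-0.36; 0.35, called higher, against the other vector). EFNA1, at 6.85 to 11.9 FPKM throughout, was called higher in SK-N-BE(2) knockdown alone (0.28; -0.09, not called, against the other vector).

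**Figure D5:**
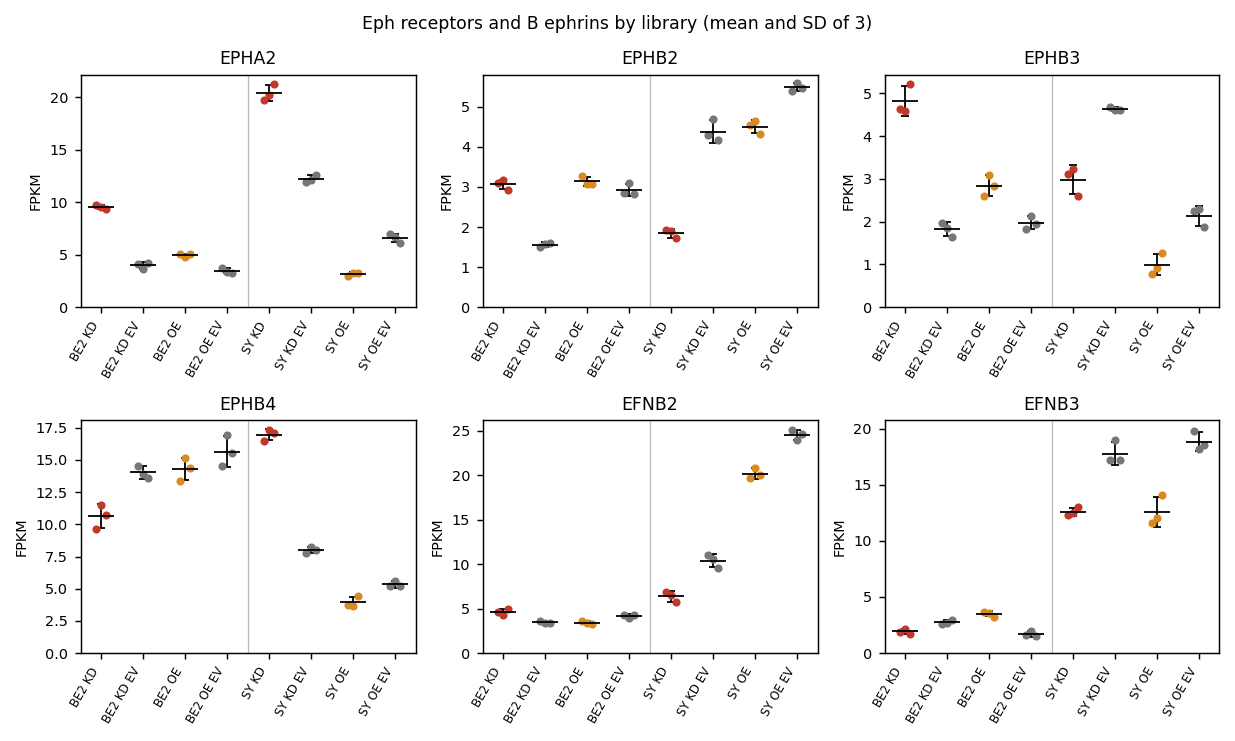
FPKM of EPHA2, EPHB2, EPHB3, EPHB4, EFNB2 and EFNB3 in each library (points), with the mean and SD of 3 libraries (bars). BE2 is SK-N-BE(2), SY is SH-SY5Y, KD is knockdown, OE is overexpression and EV is the empty vector of the construct named before it. EPHA2 is highest in SH-SY5Y knockdown, at 19.8 to 21.2 FPKM, and EPHB4 falls in SK-N-BE(2) knockdown but rises in SH-SY5Y knockdown.

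Set side by side, the knockdowns moved 15 members the same way in both lines. Higher in both were 8 (EPHA2, NRP1, PLXNA2, PLXNA3, PLXNA4, SEMA3C, SEMA6D and UNC5B), 14.5% of members against 9.97% of all rows, and lower in both were 7 (EFNB3, NRP2, PLXND1, SEMA3A, SEMA6C, UNC5A and UNC5D), 12.7% against 10.6%. Against both empty vectors in both lines 4 of the rises held (EPHA2, NRP1, PLXNA2 and UNC5B, 7.27% of members against 5.46% of all rows). So did 2 of the falls (SEMA6C and UNC5A, 3.64% against 5.8%). The SH-SY5Y knockdown calls of PLXNA2 and UNC5B against their own vector were lost on rescaling to TPM. UNC5D was below 1 FPKM in every SK-N-BE(2) library. The size of the knockdown change differed between the lines for 44 members, 20 with a more positive and 24 with a more negative change in SK-N-BE(2), 80% of members against 55.8% of all rows (29.5% and 26.3%). That split was 23 and 17 when values were rescaled to TPM, which moved the median difference of all rows to 0.20, against 0.01 as deposited. The largest differences were 3.32 for SLIT1, -2.21 for UNC5C, 2.10 for UNC5A, 1.59 for EPHB2, 1.55 for EPHB3 and -1.51 for ROBO1. With overexpression PLXNA2 alone was higher in both lines (1.82% of members against 1.38% of all rows), and EFNB2, SEMA3A, SEMA3C, SEMA4F, SEMA6A and SLIT1 were lower in both (10.9% against 1.88% of all rows). None of these 7 shared changes held against both vectors in both lines, where 0.415% of all rows were called higher and 0.453% lower. The overexpression change differed between the lines for 33 members, 22 more positive and 11 more negative in SK-N-BE(2), 60% against 36.8% of all rows (18.3% and 18.5%). With the other vector of each line as the control, an alternative chosen after seeing the data, these counts were 41 and 4. No share of all rows is given for that alternative. Whether its split is particular to the members was not tested. The level of NDUFS6 reached also differed, at 17.2 ± 2.07 FPKM in SK-N-BE(2) overexpression and 208 ± 7.74 FPKM in SH-SY5Y overexpression (SD, n = 3 each), and its part in the difference was not tested.

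Within SH-SY5Y, 10 members rose with knockdown and fell with overexpression: EPHA2, EPHB4, NTN4, PLXNA3, PLXNB3, ROBO3, SEMA3C, SEMA3F, SEMA6A and SEMA6D. That is 18.2% of members, against 3.2% of all rows, and 0 members did the reverse, against 3.42% of all rows. All 10 were called in these directions against both empty vectors as well, against 2.68% of all rows. For EPHA2, EPHB4, NTN4, PLXNB3, ROBO3, SEMA3C, SEMA3F and SEMA6D this check was bound to hold. Their mean was higher in the knockdown than in the overexpression empty vector (EPHA2 at 12.2 and 6.59 FPKM), so exchanging the vectors enlarges both changes. The vectors were at 2.43 and 2.57 FPKM for PLXNA3 and 1.31 and 1.33 FPKM for SEMA6A. For PLXNB3 they were close, at 1.17 and 1.14 FPKM. PLXNB3 lost its knockdown call on rescaling to TPM. At an unadjusted p under 0.05 in both of limma's tests 11 members rose and then fell and 1 did the reverse. Other members moved the same way with both constructs: 5 rose with both (EFNA5, NRP1, PLXNA2, PLXNA4 and PLXNB1; 9.09% against 7.21% of all rows) and 15 fell with both (27.3% against 9.21%), among them SLIT1, UNC5A and SEMA6C. Against both vectors 2 of these rises held (EFNA5 and PLXNA4, 3.64% against 3.28% of all rows). So did 7 of these falls (EFNB3, EPHA8, SEMA6B, SEMA6C, SEMA7A, SLIT1 and UNC5A, 12.7% against 5.65%). The threshold favoured the falls of EPHA8, and of SEMA6B with knockdown. These genes reached 1 FPKM only in SH-SY5Y empty-vector libraries. In SK-N-BE(2), EFNB2, PLXNA4, SEMA3C and SLIT1 rose with knockdown and fell with overexpression (7.27% against 4.92% of all rows), and EFNB3 and PLXND1 did the reverse (3.64% against 4.41%); EPHA2, EPHA8, EPHB3 and PLXNA2 rose with both (7.27% against 3.82%), and 7 fell with both (12.7% against 5.89%). Against both vectors none of the 4 in the first group held, nor did EFNB3, while PLXND1 did. The 4 that rose with both constructs held (7.27% against 2.33% of all rows), as did 1 of the 7 that fell with both, NRP2 (1.82% against 3.38%). Of these, EPHA8 was below 1 FPKM in every SK-N-BE(2) library.

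Genes that act with or below these receptors were taken from lists made with earlier results of these data known. Of 43 tested effectors of guidance signalling, 11 were higher and 17 lower in SH-SY5Y knockdown, and 11 higher and 13 lower in SK-N-BE(2) knockdown, with medians of -0.09 and -0.03. Of all rows 26.3% were higher and 29.6% lower in SH-SY5Y knockdown, and 27.4% higher and 28.3% lower in SK-N-BE(2) knockdown. CRMP1 and DPYSL5, collapsin response mediators that act below SEMA3A and bind the cytoskeleton, had log2 changes of -2.62 and -2.35 in SH-SY5Y knockdown (-2.94 and -3.03 against the other vector), whereas their relative DPYSL3 rose by 1.05 and TRIO, a guanine nucleotide exchange factor of netrin signalling, by 1.04. In SK-N-BE(2) knockdown neither CRMP1 (-0.06) nor DPYSL5 (0.14) was called, PAK1, a kinase activated by Rac, rose by 0.81 and DPYSL4 changed by -0.67; DPYSL3 rose by 0.87 but was at -0.04, not called, against the other vector. Overexpression left 1 effector higher (PAK1, 0.26) and 17 lower in SK-N-BE(2), and 4 higher and 13 lower in SH-SY5Y, where RRAS, a small GTPase on which plexins act, changed by -0.80. The shares of all rows were 12.9% higher and 16.8% lower in SK-N-BE(2), and 15.4% higher and 17.2% lower in SH-SY5Y. Of 17 other tested cues and receptors, 6 were higher and 5 lower in SH-SY5Y knockdown, where 26.3% of all rows were higher and 29.6% lower, with the adhesion molecules L1CAM, a partner of NRP1, at -2.20 and NRCAM at -1.5. Of these genes 6 were higher and 6 lower in SK-N-BE(2) knockdown, against 27.4% and 28.3% of all rows, and L1CAM rose (0.52).

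Markers of cell state and of other cell types changed in some of the same comparisons and not in others, and their part in the guidance changes was not tested. Of 7 mesenchymal markers, among them VIM and SNAI2, 6 were tested; their sum was 561 to 582 FPKM in SH-SY5Y knockdown, against 220 to 234 FPKM in its empty vector, and 284 to 310 FPKM in SK-N-BE(2) knockdown, against 281 to 282 FPKM. VIM, an intermediate filament gene had the highest level of them, up to 456 FPKM, with log2 changes of 2.20 in SH-SY5Y knockdown and 0.37 in SK-N-BE(2) knockdown. In SH-SY5Y knockdown 4 of the 6 were higher, TWIST1 was lower (-0.49) and FN1 was not called (0.01); in SK-N-BE(2) knockdown SNAI2 (2.07) and VIM were higher, CD44 (-1.62), TWIST1 (-1.27) and YAP1 (-0.92) were lower and FN1 was not called (0.22). The 10 adrenergic markers summed to 627 to 654 FPKM in SH-SY5Y knockdown, against 956 to 968 FPKM, and to 547 to 690.2 FPKM in SK-N-BE(2) knockdown, against 805 to 826 FPKM. The overexpression empty vectors had 1258 to 1294 FPKM in SH-SY5Y and 1159 to 1262 FPKM in SK-N-BE(2). Single markers went both ways. In SH-SY5Y knockdown 2 were called higher (ISL1, 0.76, and GATA3, 0.13) and 6 lower. In SK-N-BE(2) knockdown 2 were higher (TH, 0.92, and CHGB, 0.665) and 7 lower. Against the other vector the changes of these named genes were -0.002, -0.21, -0.54 and -0.06 in that order. The SH-SY5Y vectors differed as well, with a mesenchymal sum of 220 to 234 FPKM in the knockdown empty vector and of 126 to 131 FPKM in the overexpression empty vector. Fibroblast and stroma markers (6 of 7 tested) summed to 242 to 256 FPKM in SH-SY5Y knockdown, against 108 to 112 FPKM. Immune markers (1 of 4 tested, CD68) summed to 8.98 to 11.8 FPKM there, against 2.02 to 2.75 FPKM, while PTPRC, the defining leukocyte gene, stayed at 0.143 FPKM or less in every library. Endothelial markers summed to 3.35 FPKM or less, with PECAM1 at 0.00267 FPKM or less. Schwann cell markers (4 of 7 tested) summed to 15.9 to 16.9 FPKM in SH-SY5Y knockdown, against 12.7 to 13.3 FPKM, and epithelial markers (2 of 4 tested) to 2.12 to 2.58 FPKM, against 2.26 to 2.88 FPKM, with the keratin KRT5 listed at 0 in all libraries. In SH-SY5Y overexpression the mesenchymal sum was 129 to 134 FPKM, against 126 to 131 FPKM, and in SK-N-BE(2) overexpression it was 350 to 425 FPKM, against 294 to 316 FPKM. In bulk RNA a smaller share of cells that express a gene and less RNA of it per cell cannot be told apart.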

How the data were processed

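The authors deposited a table of FPKM values per gene for 24 libraries, made from strand-specific total RNA libraries, per the labels' protocols. The submitters' processing notes name FastQC 0.11.2, STAR, StringTie 1.3.1c and the hg38 genome; annotation release and counting settings were not given in the sources used here. Low values showed no whole-read steps, so depth is unknown. The values are limited by that, and no intervals for counting error are given.

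From the deposited FPKM, log2(FPKM + 1) was computed here, so fold changes of low genes are understated on that scale, while folds are ratios of mean FPKM. Rows at 1 FPKM or more in at least 3 libraries (15903, all 55 members) were fitted in limma 3.58.1 (R 4.3.3) over all 8 groups, with trend and robust options on, adjusted by Benjamini and Hochberg's method, and called at an adjusted p under 0.05. The code was tested on simulated data. Members given in full were those with the largest called changes per comparison and no overlap between groups, and those called alike or oppositely across lines or constructs; the other members are given by their change, and of pathway genes those with the largest called changes. Members and lists were chosen with earlier results of these data known. Of the adrenergic markers 1 is not reported here and is in no sum. Positions come from GENCODE v29 (GRCh38) and promoter sequences from RefSeq (GRCh38.p14). Alternatives were other pseudocounts, filters, scalings and fits, a replicate block, the other empty vector of each line, and leaving out each library.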

Additional observations from a re-analysis of the deposited data

Results flagged for a closer look

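For 12 of the named changes, the effect of a construct differed between SK-N-BE(2) and SH-SY5Y in limma's test of the difference itself (SK-N-BE(2) change minus SH-SY5Y change, log2(FPKM + 1) scale, n = 3 libraries per group). These belong to the members with the largest called differences for each construct. Their number was set by the rule for naming genes, and all were called by that choice. With knockdown, the differences were 3.32 for SLIT1, -2.21 for UNC5C, 2.10 for UNC5A, 1.59 for EPHB2, 1.55 for EPHB3 and -1.51 for ROBO1. With overexpression they were -1.49 for PLXNA4, 1.29 for EFNB3, 1.29 for EPHA2, 1.03 for EPHB3, 0.98 for UNC5A and 0.96 for SEMA3F.

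Each was also computed with the other empty vector of each line, a choice made after seeing the data. The knockdown differences were then 3.05 for SLIT1, -0.70 for UNC5C, 1.87 for UNC5A, 1.24 for EPHB2, 0.62 for EPHB3 and -2.49 for ROBO1. The overexpression differences were 0.74 for EFNB3, 1.93 for EPHA2, 1.95 for EPHB3, 1.22 for UNC5A and 1.32 for SEMA3F, while that of PLXNA4 was -0.18 and no longer called (limma adjusted p = 0.277).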

How the results depend on the processing

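Of 89 named changes, 84 kept their direction and call with a pseudocount of 0.1, 86 with no filter on low values, 88 with TPM scaling, 88 with median-of-ratios scaling, 80 with only the compared groups fitted and 89 without trend and robust moderation; the others kept direction but lost the call. With a filter of a mean of at least 5 FPKM, 23 members and 51 of the named changes were left, and all 51 kept their call. The counts of members called were then 8 higher and 10 lower in SK-N-BE(2) knockdown, 13 and 7 in SH-SY5Y knockdown, 4 and 9 in SK-N-BE(2) overexpression, 3 and 10 in SH-SY5Y overexpression, 7 and 10 for the knockdown difference between lines, 6 and 6 for the overexpression difference, 13 and 3 between the SH-SY5Y vectors, 9 and 12 between the lines, and 11 lower between the SK-N-BE(2) vectors; fewer members were tested there. Of the 7219 rows left, 67.1%, 63.6%, 44.3%, 40%, 63.4%, 46.8%, 44.4%, 82.3% and 44.7% were called in these comparisons in the order given. TPM scaling gave 4 higher between the SK-N-BE(2) vectors. With only the compared groups fitted, SK-N-BE(2) overexpression gave 4 higher and 3 lower, and the overexpression difference 7 lower. Those fits used fewer libraries and are given without a share of all rows, so the lower counts are not read as a result about the members. Against the other empty vector, 46 of 63 named changes held, 2 lost the call and 15 turned direction, called or not. The counts were 9 higher in SK-N-BE(2) knockdown, 13 lower in SH-SY5Y knockdown, 24 higher and 4 lower in SK-N-BE(2) overexpression and 8 higher in SH-SY5Y overexpression. They were 41 higher and 4 lower for the overexpression difference, which was chosen after seeing the data and is given without a share of all rows. The log2 changes that turned were, in SK-N-BE(2) knockdown, PLXNA4 at -0.54, SEMA3C at -0.32, EFNB3 at 0.12 and SLIT1 at -0.082; in SH-SY5Y knockdown, PLXND1 at 0.22; in SK-N-BE(2) overexpression, EFNA3 at -0.016, PLXNA4 at 0.74, ROBO2 at 0.14, SEMA3C at 0.56, EFNA2 at 0.35, SEMA3A at 0.17, SEMA6A at 0.29 and SLIT1 at 0.084; and in SH-SY5Y overexpression, NRP1 at -1.05 and PLXNA2 at -0.28. The cause was not tested. Leaving out each library kept 635 of 654 named values and lost the call of 19; the counts in SK-N-BE(2) overexpression ranged from 5 to 8 higher and from 8 to 16 lower. With the replicate number as a block, 0 of 89 named calls changed and SK-N-BE(2) knockdown had 17 members higher and 19 lower. Same-numbered libraries correlated between -0.076 and 0.37 in their deviations, so the numbers were not taken to pair the libraries. Depth is unknown, and members near 1 FPKM are the least precise.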
